A study of Homo sapiens with 3 samples.

Results

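Adenylyl cyclases and cyclic nucleotide phosphodiesterases, the enzymes that make and break down cyclic AMP and cyclic GMP, were followed through stem-cell-derived islets. The list held 31 genes, 10 adenylyl cyclases (ADCY1 to ADCY10) and 21 phosphodiesterase genes, taken by name from a list of gene symbols. It was chosen with earlier results of these data known, so member counts set against all genes below carry that choice. All 31 were found among the 36601 genes of the count tables. The islets came from the line HUES8, which was derived from a human embryo and has no further genetic change named in the labels. Dispersed cells had been put through magnetic sorting with an antibody to CD49a (integrin alpha 1), and CD49a-positive, CD49a-negative and unsorted cells had then been kept for 7 days as aggregates before droplet sequencing. Each of these groups was 1 library, so no test between sort groups was possible. No other treatment was named for any group.

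Membrane-bound adenylyl cyclases turn ATP into cyclic AMP and are switched on or off by G proteins, with calcium and calmodulin acting on some of them. Phosphodiesterases hydrolyse cyclic AMP, cyclic GMP or both, and thereby set how long the signal lasts and where in the cell it is seen. In islets, cyclic AMP strengthens insulin secretion set off by glucose, which is how incretin hormones such as GLP-1 act, and it also bears on glucagon and somatostatin release. Enterochromaffin cells, which make serotonin through TPH1, arise beside the islet cell types in stem-cell-derived preparations.

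Cells were sorted into classes by their own hormone RNA and not by any of the 31 genes. INS (insulin), GCG (glucagon), SST (somatostatin) and TPH1 were each scaled to their 99th percentile over all kept cells. A cell was called rich in a gene at a scaled value of at least 0.25 and at least 2 times the next. Such a class is a range of hormone RNA and not a cell type. There were 1267, 293 and 617 INS-rich cells in the CD49a-positive, CD49a-negative and unsorted library, 163, 342 and 302 GCG-rich cells, 28, 91 and 69 SST-rich cells, and 52, 251 and 249 TPH1-rich cells. The other 2902 cells (43.8%), among them those with RNA of more than 1 hormone, stayed unassigned. Within 1.2 times of a limit lay 296 INS-rich, 102 GCG-rich, 23 SST-rich and 94 TPH1-rich cells, and 531 unassigned cells lay just outside.

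The libraries held 4512, 2566 and 2811 barcodes, of which 2394, 1976 and 2256 were kept, with a median of 48538.5, 36997 and 42361 UMIs (unique molecular identifiers) per kept cell. Only 1 or 2 kept barcodes were shared by any pair of libraries. The classes were set against their markers with the gene of the rule left out. The summed beta cell markers lay between 3388 and 3777 CPM (the UMIs of a gene scaled to 1e6 UMIs of the class) in INS-rich cells and between 541.5 and 1115 CPM in the other 3 classes. For the alpha cell markers the ranges were 34012 to 46205 CPM in GCG-rich cells and 4989 to 20580 CPM elsewhere. For the enterochromaffin markers they were 1759 to 2559 CPM in TPH1-rich cells and 512 to 891 CPM elsewhere. The summed delta cell markers other than SST overlapped, with 2283 to 3021 CPM in SST-rich cells and 1850 to 2952 CPM elsewhere. Among them HHEX stood at 179, 188 and 146 CPM in SST-rich cells, against 3.20 to 10.8 CPM in the other 3 classes, and LEPR at 74.3, 56.1 and 58.0 CPM, against 2.57 to 9.05 CPM. The list was mixed: of its 4 tested genes other than SST, 1 was called higher and 2 lower in INS-rich than in SST-rich cells. Against GCG-rich cells 3 were higher in SST-rich cells and 0 lower, and against TPH1-rich cells 3 and 0. SST-rich cells also carried GHRL, which encodes ghrelin, at 96.3, 215 and 165 CPM, against at most 10.7 CPM in the INS-rich, GCG-rich and TPH1-rich sums. INS RNA in the classes other than INS-rich ran from 4889.9 to 20082 CPM, and TPH1 RNA in the classes other than TPH1-rich from 4.73 to 57.3 CPM. No doublet caller was used. Median mitochondrial shares were 4.26 to 8.0%, and MALAT1, a nuclear RNA, stood at 10978 to 11747 CPM in INS-rich cells and at 13503 to 19842 CPM in the other classes. The part of these differences in the results below was not tested.

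The genes were mostly long. Of the 27 members with enough counts to test, 21 spanned 100 kb or more, and PDE4D spanned 1553 kb. Cyclic AMP acts on transcription through the CREB proteins, which bind the sequence TGACGTCA and its shorter form TGACG. RefSeq promoters (GRCh38.p14, 250 bases before each start) were matched by symbol for 25 of the 31 genes, with 72 starts. ADCY6, ADCY8, ADCY9, PDE3B, PDE7A and PDE9A had no entry in the table. On either strand, TGACGTCA was found at 1 of the 72 starts (1.39%), against 1.65% of 35116 starts of all genes. TGACG, which every TGACGTCA also contains, was found at 10 of 72 (13.9%), against 21.2%. A window around 1 match is shown for each of 5 members, since these enzymes set the signal that CREB reads. Shown are members with a match and at least 10 CPM and 100 UMIs in some class, and PDE7B for its full site. ADCY3, PDE1B, PDE4C and PDE4A, with 5 matches at 1 start, also held TGACG and are not shown. The ADCY1 match was counted at neighbouring starts of that gene that share it. The capitals mark the match, written as CGTCA where it lies on the other strand, and a match is a description of letters and not of binding.
ADCY1: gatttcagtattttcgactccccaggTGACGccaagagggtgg
ADCY2: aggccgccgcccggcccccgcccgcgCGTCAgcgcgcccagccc
PDE4D: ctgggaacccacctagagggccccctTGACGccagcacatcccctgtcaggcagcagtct
PDE6B: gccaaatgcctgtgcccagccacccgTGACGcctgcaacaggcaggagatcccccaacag
PDE7B: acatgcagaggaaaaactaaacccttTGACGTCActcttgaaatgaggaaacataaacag
The ADCY1 window lies at chr7:45574097-45574139 (plus strand) and the ADCY2 window at chr5:7396094-7396137 (plus strand). The PDE4D window, at 1 of several starts of that gene, lies at chr5:59587649-59587708 (minus strand). The PDE6B window lies at chr4:625349-625408 and the PDE7B window at chr6:135851520-135851579, both on the plus strand. The only full TGACGTCA was that of PDE7B, a cyclic AMP-specific phosphodiesterase, 155 bases before the start.

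The first comparison asked which of the enzymes differed between the classes. UMIs were summed per library and class, giving 3 sums per class, and edgeR's quasi-likelihood test was run over 16701 genes with the library as a term. With that term, the p-values and SEs measure how far class differences varied over these 3 libraries, with an estimate of spread shared by all sums. The 3 libraries are also the 3 sort groups, so this spread includes any sort difference that varied by class. The labels do not say that the libraries came from separate differentiations, so it is not a spread between known biological replicates and may be partly technical. Between INS-rich and GCG-rich cells, 20 of the 27 members tested passed an adjusted p of 0.05, 9 higher in INS-rich cells and 11 lower, against 38.0% of all genes (19.6% higher, 18.4% lower). The counts were 17 of 27 (6 higher, 11 lower) between INS-rich and SST-rich cells, against 24.8% of all genes (13.5% and 11.4%), and 16 of 27 (7 and 9) between INS-rich and TPH1-rich cells, against 40.7% (20.3% and 20.4%). Between GCG-rich and SST-rich cells 14 passed (4 and 10), against 22.3% of all genes (11.1% and 11.2%). Between GCG-rich and TPH1-rich cells 17 passed (6 and 11), against 49.4% (24.9% and 24.5%), and between SST-rich and TPH1-rich cells 14 passed (7 and 7), against 29.2% (14.0% and 15.2%).

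Long genes and well-counted genes were called more often in general, and the members belong to both kinds. Their median level was 35.4 CPM, against 17.0 CPM for all genes tested. Among genes of at least 100 kb and 10 CPM, the shares called in the same order of pairs were 56.1, 40.7, 61.2, 39.5, 70.2 and 51.9%, and among the 14 members of that kind 85.7, 92.9, 78.6, 71.4, 92.9 and 64.3%. With a 2-fold difference asked for as well, 12, 11, 8, 7, 8 and 10 members passed, against 11.3, 8.36, 12.1, 7.59, 17.4 and 10.6% of all genes. The median signed log2 difference of the 27 members was -0.03, -0.31, -0.07, -0.42, -0.34 and 0.11 in that order, with the median of all genes between -0.02 and 0.02. With the total UMIs as scale the median of all genes was -0.22 between INS-rich and TPH1-rich and -0.19 between GCG-rich and TPH1-rich cells. The members split 5 higher to 12 lower and 3 higher to 12 lower there. All CPM values, and statements on overlap, use total UMIs, whereas the log2 differences use TMM scaling. The 2 can therefore differ in size, chiefly between INS-rich or GCG-rich and TPH1-rich cells. Of 98 calls on members, 61 were kept under each of 16 other settings. ADCY6, ADCY10, PDE4A and PDE4C were tested and called in none of the 6 pairs.

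**Figure D1:**
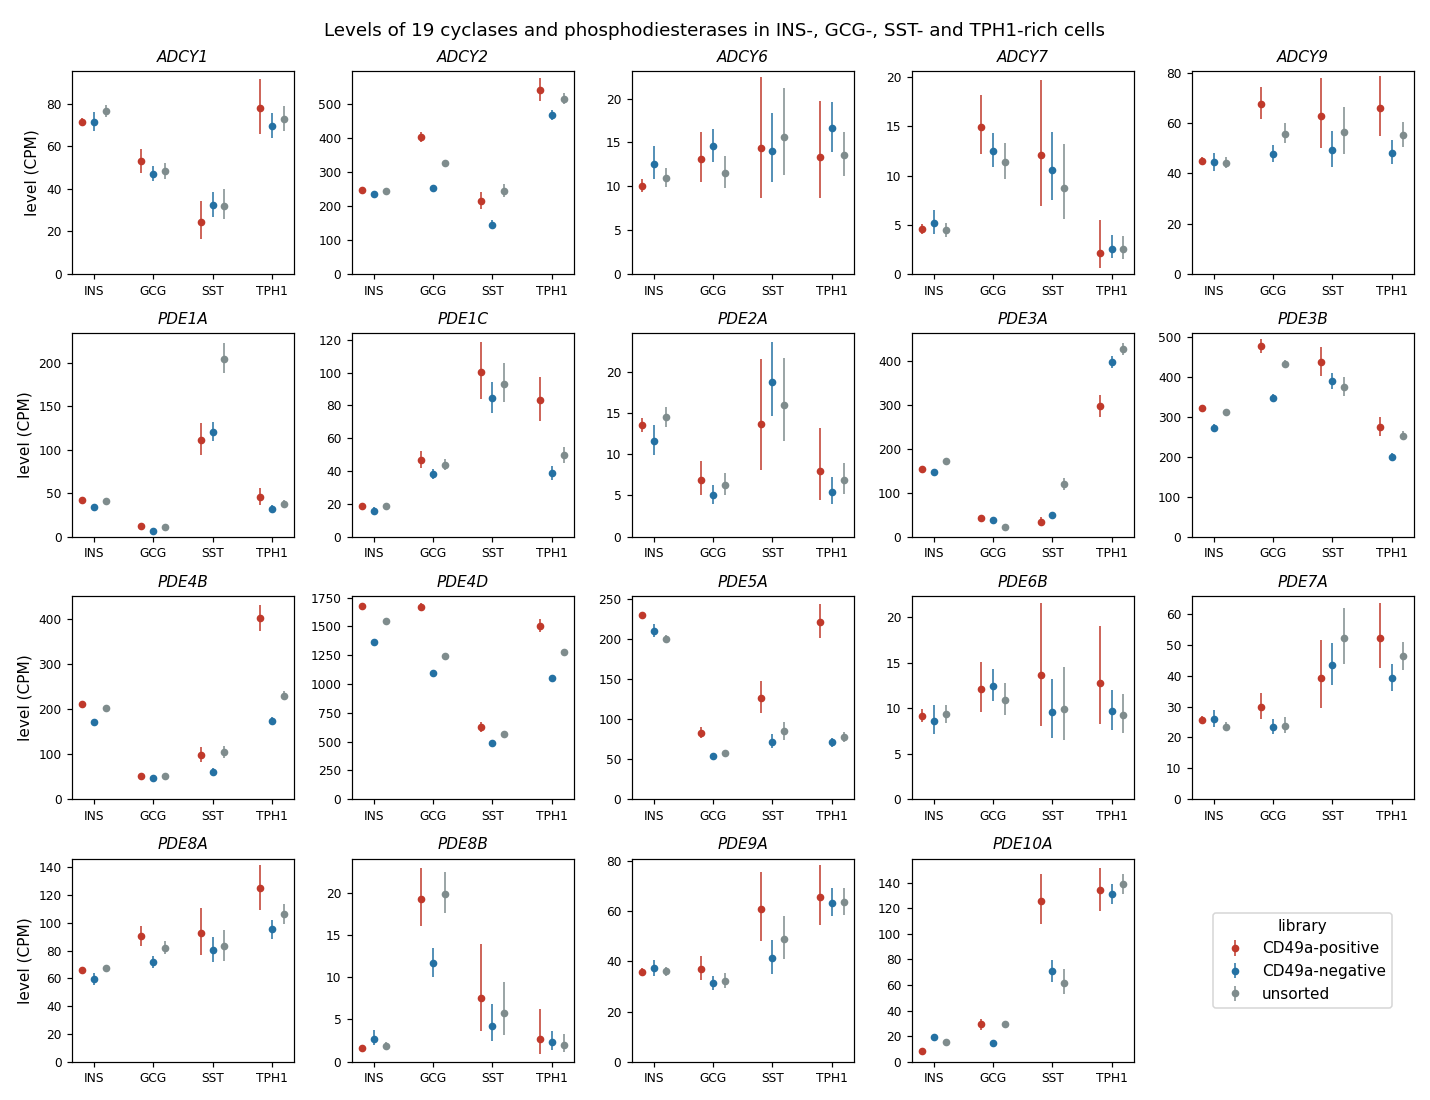
Levels of the 19 members with at least 10 CPM and 100 UMIs in some class, in CPM on linear axes that start at 0, by class and library. Points are single libraries and bars are exact 95% Poisson intervals for counting error only; PDE8B stood highest in GCG-rich cells, PDE1A in SST-rich cells and PDE3A in TPH1-rich cells, in every library.

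Among the cyclases of the membrane, ADCY1 and ADCY2 were called in all 6 pairs of classes, though not all of these calls were stable. ADCY1 (ENSG00000164742, GRCh38 chromosome 7, 45574140 to 45723116), a cyclase that calcium and calmodulin stimulate, was found in INS-rich cells at 71.2, 71.3 and 76.5 CPM in the CD49a-positive, CD49a-negative and unsorted library, the order used for all values that follow. In GCG-rich cells ADCY1 stood at 52.8, 47.1 and 48.3 CPM, in SST-rich cells at 24.3, 32.3 and 32.1 CPM, and in TPH1-rich cells at 77.9, 69.5 and 72.9 CPM. INS-rich and TPH1-rich cells were thus the high classes and overlapped, with means of 73.0 and 73.4 CPM. The call of a higher INS-rich level (log2 0.22 with TMM scaling) was lost in 7 of 16 other settings, total UMIs as scale among them. GCG-rich cells came below these 2 classes, and SST-rich cells were lowest in each library. The log2 difference of INS-rich from SST-rich cells was 1.35 ± 0.10 (SE, n = 3 libraries; edgeR adjusted p = 1.4e-07), and that from GCG-rich cells 0.57 ± 0.08 (edgeR adjusted p = 2.3e-05). ADCY2 (ENSG00000078295, chromosome 5, 7396208 to 7830081), which the beta-gamma subunits of G proteins can stimulate, stood at 249, 237 and 245 CPM in INS-rich, 404, 253 and 327 CPM in GCG-rich, 215, 146 and 245 CPM in SST-rich and 543, 468 and 517 CPM in TPH1-rich cells. TPH1-rich cells were above each other class in every library. The calls on ADCY2 between INS-rich and GCG-rich cells and between INS-rich and SST-rich cells were each lost in 4 of 16 other settings, the former without the CD49a-positive library and the latter without the CD49a-negative one among them. ADCY2 was 1.25 ± 0.12 log2 lower in SST-rich than in TPH1-rich cells (edgeR adjusted p = 1.2e-06). It was 0.85 ± 0.11 log2 lower in INS-rich than in TPH1-rich cells (edgeR adjusted p = 1.6e-05), a call that ended when classes were taken from clusters.

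ADCY7 (ENSG00000121281, chromosome 16, 50246137 to 50318135), a cyclase known from blood cells and from brain, was the member of this group with the largest differences. Its level was 4.59, 5.18 and 4.43 CPM in INS-rich cells, 15, 12.5 and 11.4 CPM in GCG-rich cells, 12.1, 10.6 and 8.78 CPM in SST-rich cells and 2.13, 2.57 and 2.49 CPM in TPH1-rich cells. GCG-rich and SST-rich cells overlapped at the top, and the other classes followed without overlap. GCG-rich cells exceeded TPH1-rich cells by 2.55 ± 0.19 log2 (edgeR adjusted p = 1.7e-08) and INS-rich cells by 1.45 ± 0.13 log2 (edgeR adjusted p = 2.7e-07). INS-rich cells in turn exceeded TPH1-rich cells by 1.10 ± 0.20 log2 (edgeR adjusted p = 3.8e-04).

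The other cyclases gave smaller or thinner differences. ADCY6, which calcium inhibits, lay between 10.1 and 16.6 CPM in all 12 sums, with INS-rich cells below SST-rich and TPH1-rich cells without overlap, and no pair was called. ADCY9, a broadly expressed cyclase, stood at 45.0, 44.6 and 44.2 CPM in INS-rich cells and at 67.6, 47.6 and 55.8 CPM in GCG-rich cells. The log2 difference of -0.34 ± 0.08 (edgeR adjusted p = 0.0026) between these classes was no longer called without the unsorted library. ADCY8, stimulated by calcium and calmodulin like ADCY1, was low, with 5.58, 3.74 and 4.5 CPM in INS-rich against 1.07, 1.89 and 1.96 CPM in GCG-rich cells. It was 1.36 ± 0.26 log2 higher in INS-rich cells (edgeR adjusted p = 5.1e-04), without overlap. ADCY5, whose variants are tied to fasting glucose, lay between 0 and 5.31 CPM and ADCY3, found in olfactory neurons and in cilia, between 0.656 and 3.20 CPM. ADCY3 was 1.56 ± 0.31 log2 lower in INS-rich than in TPH1-rich cells (edgeR adjusted p = 7.0e-04). ADCY4 did not reach the count minimum, and the soluble cyclase ADCY10, which bicarbonate activates, stayed at or below 4.58 CPM in every sum.

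The calcium- and calmodulin-dependent phosphodiesterases of family 1, which hydrolyse both cyclic nucleotides, were highest in SST-rich cells for PDE1A and PDE1C. PDE1A (ENSG00000115252, chromosome 2, 182140036 to 182523192, minus strand) stood at 111, 120.1 and 205 CPM in SST-rich cells. Its levels were 42.2, 34.3 and 40.6 CPM in INS-rich, 45.4, 31.9 and 37.7 CPM in TPH1-rich and 11.6, 6.03 and 11.1 CPM in GCG-rich cells. SST-rich cells lay above and GCG-rich cells below every other class, while INS-rich and TPH1-rich cells overlapped. The log2 difference between GCG-rich and SST-rich cells was -3.91 ± 0.18, a 15-fold difference (edgeR adjusted p = 7.4e-10) and the largest of any member. Between INS-rich and GCG-rich cells PDE1A differed by 2.09 ± 0.17 log2 (edgeR adjusted p = 9.0e-08).

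PDE1C (ENSG00000154678, chromosome 7, 31751179 to 32299329, minus strand) shared the high SST-rich level, at 100.1, 84.4 and 93.2 CPM, but differed from PDE1A in the other classes. INS-rich cells held 18.7, 15.6 and 18.6 CPM of PDE1C, GCG-rich cells 46.9, 38.0 and 43.8 CPM, and TPH1-rich cells 83.2, 38.5 and 49.5 CPM. INS-rich cells were the lowest class for PDE1C, where GCG-rich cells had been lowest for PDE1A. INS-rich cells lay 2.31 ± 0.13 log2 below SST-rich cells (edgeR adjusted p = 6.2e-09), 1.30 ± 0.12 log2 below GCG-rich cells (edgeR adjusted p = 2.8e-07) and 1.36 ± 0.13 log2 below TPH1-rich cells (edgeR adjusted p = 3.6e-07). PDE1B did not reach the count minimum.

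PDE2A, which cyclic GMP activates, and the family 3 genes, which cyclic GMP inhibits, are points where the 2 nucleotides meet. PDE2A (ENSG00000186642, chromosome 11, 72576141 to 72674591, minus strand) stood at 13.5, 11.6 and 14.5 CPM in INS-rich and 13.6, 18.8 and 16 CPM in SST-rich cells. In GCG-rich cells it stood at 6.87, 5.03 and 6.24 CPM and in TPH1-rich cells at 8.0, 5.38 and 6.88 CPM. The first pair of classes lay above the second in every sum. PDE2A was 1.16 ± 0.14 log2 higher in INS-rich than in GCG-rich cells (edgeR adjusted p = 5.1e-06) and 1.25 ± 0.16 log2 higher than in TPH1-rich cells (edgeR adjusted p = 1.1e-05).

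The 2 genes of family 3 did not follow each other. PDE3A (ENSG00000172572, chromosome 12, 20369245 to 20684381), best known from heart, platelets and oocytes, stood at 296, 397 and 427 CPM in TPH1-rich and at 154, 148 and 173 CPM in INS-rich cells. In GCG-rich cells it stood at 41.5, 38.0 and 22.3 CPM and in SST-rich cells at 34.1, 48.2 and 119 CPM, so that the SST-rich sums of PDE3A were wide apart and overlapped those of GCG-rich cells. TPH1-rich cells exceeded GCG-rich cells by 3.26 ± 0.27 log2 (edgeR adjusted p = 7.5e-08), and INS-rich cells exceeded GCG-rich cells by 2.24 ± 0.26 log2 (edgeR adjusted p = 5.1e-06). The difference of 1.02 ± 0.24 log2 between TPH1-rich and INS-rich cells (edgeR adjusted p = 0.0027) was not called with DESeq2 or with classes from clusters. PDE3B (ENSG00000152270, chromosome 11, 14643723 to 14872044), which insulin activates in fat and liver, was found at 477, 348 and 433 CPM in GCG-rich, 437, 390.3 and 375 CPM in SST-rich, 322, 273 and 311 CPM in INS-rich and 275, 200.1 and 252 CPM in TPH1-rich cells. TPH1-rich cells, highest for PDE3A, were lowest for PDE3B in 3 of 3 libraries. GCG-rich cells exceeded TPH1-rich cells by 1.01 ± 0.08 log2 for PDE3B (edgeR adjusted p = 5.7e-08) and INS-rich cells by 0.47 ± 0.08 log2 (edgeR adjusted p = 2.2e-04).

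Family 4, cyclic AMP-specific and the target of rolipram and roflumilast, was represented chiefly by PDE4B and PDE4D. PDE4B (ENSG00000184588, chromosome 1, 65792514 to 66374579) stood at 212, 171 and 202 CPM in INS-rich and at 402, 173 and 229 CPM in TPH1-rich cells. In GCG-rich cells it stood at 51.5, 47.7 and 52.4 CPM and in SST-rich cells at 97.8, 59.8 and 104 CPM. GCG-rich cells were lowest throughout, and INS-rich and TPH1-rich cells overlapped. INS-rich cells exceeded GCG-rich cells by 1.92 ± 0.15 log2 (edgeR adjusted p = 7.4e-08) and SST-rich cells by 1.29 ± 0.17 log2 (edgeR adjusted p = 3.5e-05).

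PDE4D (ENSG00000113448, chromosome 5, 58969038 to 60522120, minus strand) stood at 1675, 1367 and 1546 CPM in INS-rich, 1670.1, 1093 and 1244 CPM in GCG-rich and 1503, 1052 and 1279 CPM in TPH1-rich cells. SST-rich cells held 626, 488 and 563 CPM of PDE4D, below all 9 sums of the other classes. The SST-rich level was 1.56 ± 0.08 log2 under that of INS-rich cells (edgeR adjusted p = 2.9e-09), 1.35 ± 0.08 log2 under GCG-rich cells (edgeR adjusted p = 1.6e-08) and 1.07 ± 0.08 log2 under TPH1-rich cells (edgeR adjusted p = 1.1e-07). SST-rich cells were the class with most PDE1A and PDE1C and least PDE4D. PDE4A and PDE4C stayed at or under 3.03 and 3.79 CPM.

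Of the high-affinity cyclic AMP enzymes of families 7 and 8, PDE8B was highest in GCG-rich cells and PDE7B was lowest in INS-rich cells, in every sum. PDE8B (ENSG00000113231, chromosome 5, 77210449 to 77429807), known from adrenal and thyroid cells, stood at 19.2, 11.6 and 19.9 CPM in GCG-rich cells and at 7.58, 4.23 and 5.73 CPM in SST-rich cells. INS-rich cells held 1.63, 2.74 and 1.82 CPM and TPH1-rich cells 2.67, 2.32 and 2.02 CPM. GCG-rich cells were above all other sums, by 3.14 ± 0.22 log2 (8.81-fold) over INS-rich cells (edgeR adjusted p = 1.3e-08) and by 3.08 ± 0.28 log2 (8.46-fold) over TPH1-rich cells (edgeR adjusted p = 2.2e-07). With each cell thinned to 10000 UMIs, PDE8B was seen in 12.2% of GCG-rich, 5.3% of SST-rich, 1.5% of INS-rich and 1.0% of TPH1-rich cells.

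PDE8A, the broadly expressed partner, moved little: 65.8, 59.4 and 67.3 CPM in INS-rich against 125, 95.3 and 106 CPM in TPH1-rich cells. GCG-rich and SST-rich cells lay between them, at 71.6 to 92.5 CPM. INS-rich cells were 0.53 ± 0.07 log2 below TPH1-rich cells for PDE8A (edgeR adjusted p = 1.7e-05). PDE7A, another cyclic AMP-specific enzyme, stood at 25.7, 26 and 23.5 CPM in INS-rich and at 39.4, 43.4 and 52.3 CPM in SST-rich cells, a difference of -0.79 ± 0.12 log2 (edgeR adjusted p = 1.6e-04). TPH1-rich cells were as high for PDE7A, at 52.3, 39.3 and 46.3 CPM. INS-rich cells lay 0.64 ± 0.11 log2 below them (edgeR adjusted p = 1.4e-04). PDE7B was sparse, at 0.357, 0.720 and 0.481 CPM in INS-rich and 6.40, 4.77 and 7.36 CPM in TPH1-rich cells. It was 3.50 ± 0.36 log2 lower in INS-rich cells (edgeR adjusted p = 1.2e-06), without overlap.

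Of the enzymes specific for cyclic GMP, PDE5A was highest in INS-rich cells in each library. PDE5A (ENSG00000138735, chromosome 4, 119494395 to 119628991, minus strand), the target of sildenafil, stood at 229, 210.3 and 200.2 CPM in INS-rich, 82.6, 54.0 and 57.5 CPM in GCG-rich and 127, 71.7 and 84.8 CPM in SST-rich cells. In TPH1-rich cells PDE5A stood at 221, 70.8 and 77.1 CPM, so the CD49a-positive library reached the INS-rich range and the other 2 did not. INS-rich cells exceeded GCG-rich cells by 1.76 ± 0.18 log2 (edgeR adjusted p = 1.1e-06) and SST-rich cells by 1.34 ± 0.20 log2 (edgeR adjusted p = 1.1e-04). INS-rich exceeded TPH1-rich cells by 1.23 ± 0.18 log2 (edgeR adjusted p = 5.6e-05) with overlapping groups. PDE9A, which has a high affinity for cyclic GMP, stood at 65.6, 63.3 and 63.6 CPM in TPH1-rich and at 35.8, 37.1 and 35.9 CPM in INS-rich cells, a difference of 0.62 ± 0.08 log2 (edgeR adjusted p = 1.9e-05). PDE6B, a catalytic subunit of the rod photoreceptor enzyme, lay between 8.64 and 13.6 CPM in all 12 sums. It was called 0.39 log2 lower in INS-rich than in GCG-rich cells (edgeR adjusted p = 0.014), lost in 5 of 16 other settings. GCG-rich cells were 0.45 log2 above TPH1-rich cells (edgeR adjusted p = 0.0145), lost in 4. PDE6A and PDE6C, the rod and cone relatives of PDE6B, did not reach the count minimum.

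Families 10 and 11 act on both nucleotides. PDE10A (ENSG00000112541, chromosome 6, 165327287 to 165988078, minus strand), best known from striatal neurons, stood at 134, 131 and 139 CPM in TPH1-rich and at 126, 70.6 and 61.9 CPM in SST-rich cells. Its levels were 29.2, 14.4 and 29.2 CPM in GCG-rich and 8.40, 19.5 and 15.7 CPM in INS-rich cells. TPH1-rich cells lay above all other sums, but their difference from SST-rich cells was not called (log2 -0.63 for SST-rich minus TPH1-rich, edgeR adjusted p = 0.12). INS-rich and GCG-rich cells overlapped, and the call between them (edgeR adjusted p = 0.042) was lost in 9 of 16 other settings. TPH1-rich cells exceeded INS-rich cells by 3.10 ± 0.27 log2 (8.57-fold; edgeR adjusted p = 2.1e-07) and GCG-rich cells by 2.31 ± 0.28 log2 (edgeR adjusted p = 4.6e-06). PDE11A lay between 4.71 and 13.6 CPM, and 0.95 ± 0.21 log2 lower in GCG-rich than in SST-rich cells (edgeR adjusted p = 0.0040), a call that ended without the unsorted library.

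**Figure D2:**
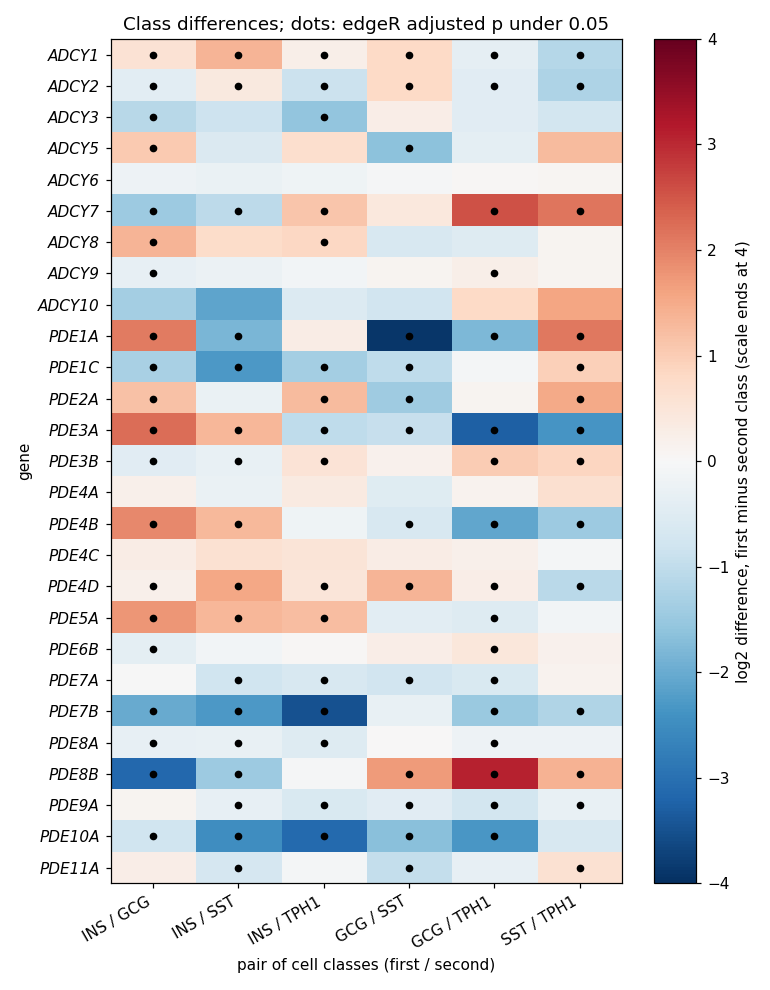
Log2 differences between classes for the 27 members tested (rows, in order of family) in the 6 pairs of classes (columns); red stands for higher in the first class, blue for lower, and dots for an edgeR adjusted p under 0.05. PDE1A between GCG-rich and SST-rich cells, at -3.91, is the strongest colour, and the rows of ADCY6, ADCY10, PDE4A and PDE4C carry no dot.

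The UMIs of PDE10A were held by few of the TPH1-rich cells. With 10000 UMIs per cell, the 10% of TPH1-rich cells with most PDE10A held 81.6, 81.4 and 84.7% of its UMIs, at a mean of 1.85, 1.44 and 1.44 UMIs per cell. For PDE8A, at a mean of 1.34, 0.912 and 1.16 UMIs per cell, the same share was 39.7, 40.1 and 34.9%. PDE3A, at a higher mean of 2.83, 4.30 and 4.54 UMIs per cell, gave 48.1, 44.5 and 45.6%. PDE10A was not alone in this, since the share was 71.9, 74.7 and 82.1% for PDE1C and 85.2, 61.5 and 72.9% for PDE1A, at means of at most 0.681 UMIs per cell. The share depends on the mean, and genes with very few UMIs reach 100% by that alone. A UMI of PDE10A was seen in 25.1% of the thinned TPH1-rich cells, and of PDE8A in 56.1%.

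TPH1-rich cells were also read by clusters that had been made without any of the 31 genes. Of the TPH1-rich cells of cluster 8, led by POSTN, UNC13C and CUX2, 68.0% had a UMI of PDE10A (25 cells, 325 CPM). In cluster 14, led by CARTPT, CGA and TAC1, the share was 51.4% (140 cells, 137 CPM). In cluster 9, the one with most TPH1-rich cells and led by ADAMTSL3, ADAMTS20 and ROS1, 18.9% of 259 cells held a UMI, at 164 CPM. Cluster 16 gave 28.3% (53 cells, 69.8 CPM) and cluster 13 gave 44.8% (29 cells, 24.7 CPM). CARTPT and TAC1 stood at 888.5 and 614 CPM over all cells of cluster 16, against 504 and 248 CPM in cluster 14. The 23 TPH1-rich cells of cluster 7, most of whose classed cells were INS-rich, and the 13 of cluster 10 had no UMI of PDE10A. These shares are of unthinned cells, so they depend on the UMIs per cell, and they carry no test. INS-rich cells of cluster 7 were shallow: 4 UMIs of PDE10A in 312 cells came to 2.05 CPM. In cluster 0, 386 UMIs in 515 INS-rich cells came to 11.4 CPM. The depth of the TPH1-rich cells of clusters 7 and 10 was not compared.

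**Figure D3:**
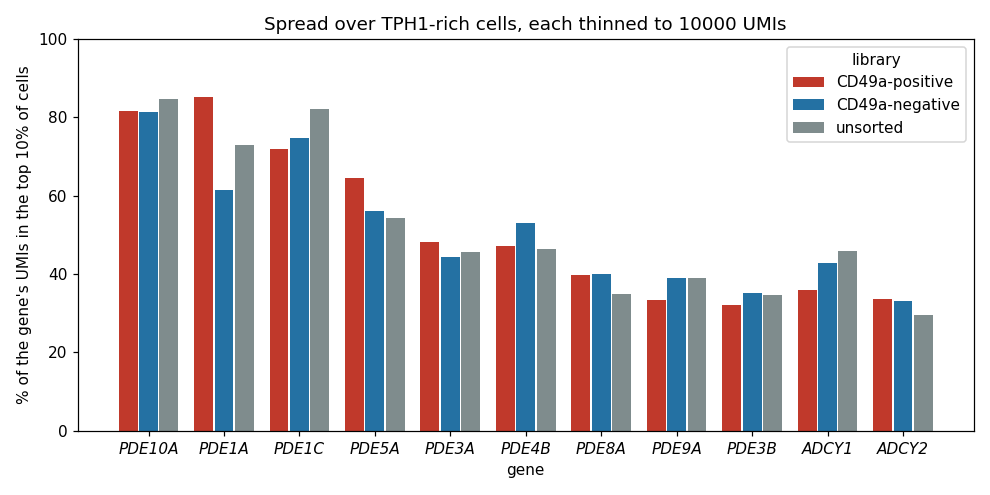
Share of a gene's UMIs held by the 10% of TPH1-rich cells with the most of it, in percent, for 11 members after thinning each cell to 10000 UMIs; bars are single libraries. PDE10A lies at 81.4 to 84.7%, PDE1C at 71.9 to 82.1% and PDE3A at 44.5 to 48.1%.

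The second comparison asked how the enzymes differed between the sorted libraries. With 1 library per group there is no test, and a member was counted when the ratio of CPM, with 1 CPM added to both, passed 1.5-fold and the higher library held at least 50 UMIs. Intervals on ratios are exact 95% intervals for counting error only. Over all kept cells, 5 of 29 members were past 1.5-fold higher in the CD49a-positive than in the CD49a-negative library and 2 lower, against 2.67% and 5.74% of all genes (8.41% either way). PDE5A stood at 235, 109 and 163 CPM, a positive to negative ratio of 2.15 (2.10 to 2.20), PDE4B at 248, 135 and 199.8 CPM (ratio 1.83, 1.79 to 1.87) and PDE4D at 1842, 1166 and 1492 CPM (ratio 1.58, 1.57 to 1.59). PDE2A, at 13.5, 8.03 and 11.0 CPM, and ADCY8, at 5.83, 3.29 and 3.73 CPM, were the other higher members. PDE10A, at 17.8, 36.0 and 34.7 CPM (ratio 0.496, 0.469 to 0.524), and PDE7B, at 0.834, 1.90 and 1.88 CPM, were lower. INS-rich cells made up 52.9% of kept cells in the CD49a-positive, 14.8% in the CD49a-negative and 27.3% in the unsorted library, and TPH1-rich cells 2.17, 12.7 and 11.0%. Unassigned cells made up 36.9, 50.6 and 45.2%. Within these unassigned cells PDE5A stood at 271, 107 and 182 CPM, PDE4B at 335, 156 and 243 CPM and PDE4D at 2196, 1209 and 1612 CPM. The part of the class shares in the differences over all kept cells was not tested.

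Within INS-rich cells, 0 of 21 members were past 1.5-fold higher in the CD49a-positive library and 1 was lower, against 1.25% and 1.17% of all genes (2.42% either way). PDE5A stood at 229 against 210.3 CPM there and PDE4B at 212 against 171 CPM, so the differences over all kept cells were not seen at that size within the class. PDE10A was the 1 lower gene, at 8.40 against 19.5 CPM (589 and 271 UMIs; ratio 0.431, 0.372 to 0.499), with 15.7 CPM in the unsorted library. TPH1 RNA in the same INS-rich cells was 21.7, 54.9 and 46.0 CPM, in the same order of libraries as PDE10A. The part of TPH1 RNA in the PDE10A difference was not tested. The interval on the PDE10A ratio leaves out the spread between cells. INS-rich cells of cluster 1 held 7.08 CPM in the CD49a-positive and 36.2 CPM in the CD49a-negative library, the latter on 44 cells. In cluster 0 the levels were 8.42 and 12.4 CPM, with a UMI in 16.25 and 18.5% of cells. Cluster 13 went the other way, at 3.685 and 3.03 CPM.

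Within GCG-rich cells, 6 of 18 members were past 1.5-fold higher in the CD49a-positive library and 0 lower, against 3.30% and 4.32% of all genes (7.61% either way). These were PDE10A (ratio 2.03, 1.66 to 2.47), PDE1A (1.92, 1.40 to 2.63), PDE8B (1.65, 1.31 to 2.09), ADCY2 (1.60, 1.52 to 1.68), PDE5A (1.53, 1.37 to 1.71) and PDE4D (1.53, 1.49 to 1.57). The unsorted library lay nearer the CD49a-positive level for PDE10A, PDE1A and PDE8B, and nearer the CD49a-negative level for PDE5A and PDE4D. In SST-rich cells 3 of 15 members were higher (PDE10A, PDE5A and PDE4B) and 0 lower, against 5.13% and 8.27% of all genes (13.4% either way), on only 28 cells in the CD49a-positive library.

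Within TPH1-rich cells 3 of 16 members were past 1.5-fold higher in the CD49a-positive library and 0 lower, against 5.09% and 11.4% of all genes (16.5% either way). PDE5A stood at 221, 70.8 and 77.1 CPM (415, 579 and 650 UMIs), a ratio of 3.13 (2.75 to 3.55) to the CD49a-negative and of 2.87 (2.53 to 3.25) to the unsorted library. PDE4B, at 402, 173 and 229 CPM, had ratios of 2.33 (2.13 to 2.54) and 1.75 (1.61 to 1.91), and PDE1C, at 83.2, 38.5 and 49.5 CPM, of 2.16 (1.77 to 2.63) and 1.68 (1.39 to 2.03). The CD49a-negative and unsorted libraries differed by under 1.5-fold for all 3. These values rest on 52 CD49a-positive cells. Of the 47 that were thinned, the 5 with most PDE5A held 64.6% of its 96 UMIs. The 10% of cells with most PDE5A held 56% in the CD49a-negative and 54.3% in the unsorted library. A UMI of PDE5A was seen in 48.9, 37.0 and 40.1% of the thinned TPH1-rich cells, values closer together than the CPM. The intervals on the ratios, for counting error only, leave out this spread between cells. INS RNA in TPH1-rich cells stood at 11814, 5199.6 and 4889.9 CPM, also highest in the CD49a-positive library. The summed markers of dividing cells stood at 127, 32.9 and 5.70 CPM in the same order. The part of either in these ratios was not tested. Over the other settings the log2 ratio of positive to negative in TPH1-rich cells, 1.63 for PDE5A as reported, ran from 0.79 to 1.76. That for PDE4B ran from 0.66 to 1.33, and that for PDE1C from -0.35 to 1.47, turning in direction with a scaled hormone value of at least 0.4.

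Long genes as a whole were higher in the CD49a-positive library within 3 of the classes, and the members moved with them. The median log2 ratio of positive to negative was 0.34 for the 18 eligible members in GCG-rich cells, 0.32 for genes of 100 kb or longer and -0.01 for all genes. In SST-rich cells these medians were 0.24, 0.24 and -0.07, and in TPH1-rich cells 0.40, 0.27 and -0.12. In INS-rich cells they were 0.11, 0.08 and 0.02. The shares of long genes past 1.5-fold either way were 11.5% in GCG-rich, 15.3% in SST-rich and 17.7% in TPH1-rich cells.

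**Figure D4:**
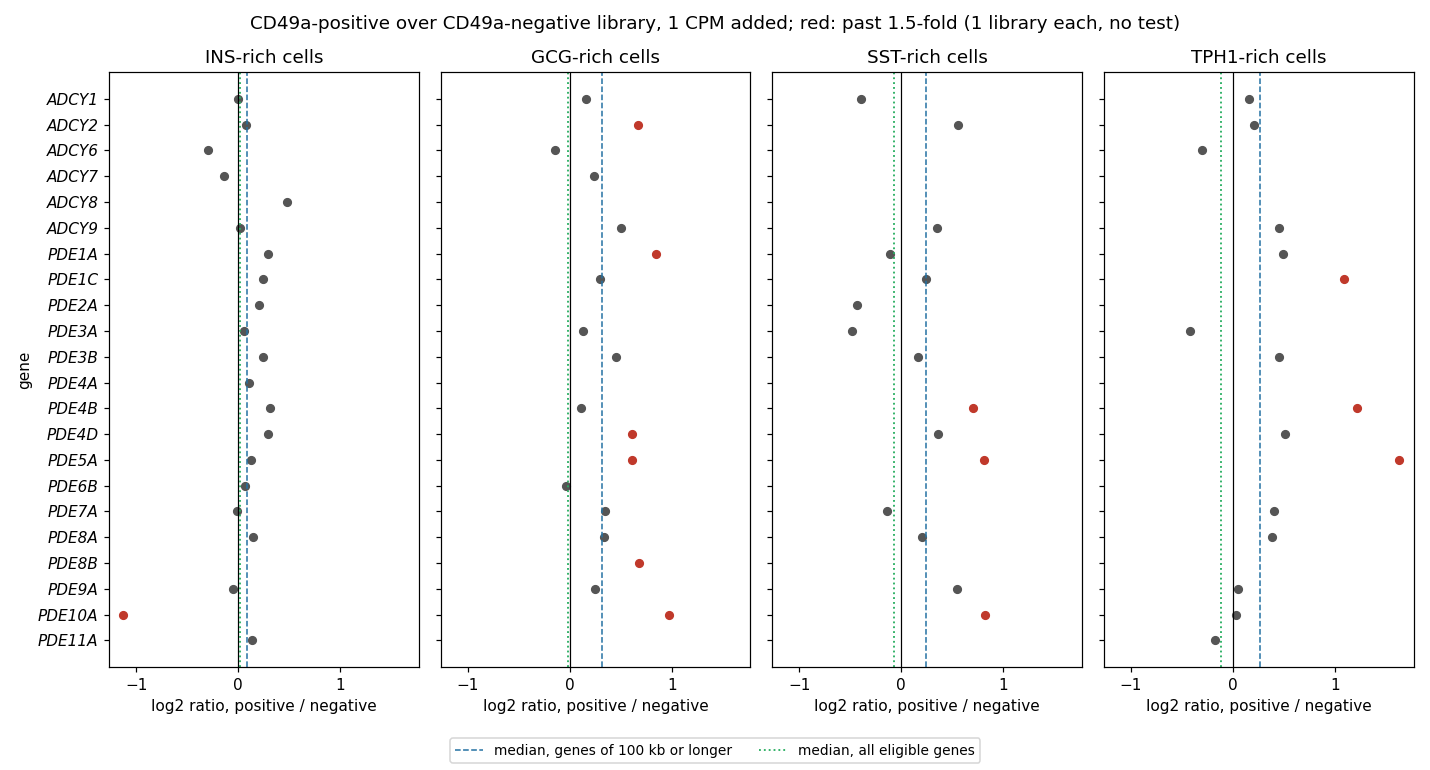
Log2 ratio of the CD49a-positive to the CD49a-negative library (1 CPM added to both) for eligible members in each class; points are members, red past 1.5-fold, the dashed line marks the median of genes of 100 kb or longer and the dotted line that of all eligible genes. PDE10A lies at -1.12 in INS-rich and at 0.97 in GCG-rich cells, and PDE5A at 1.63 in TPH1-rich cells.

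The rest of the pathway was read from 10 lists of receptors, G proteins, effectors and targets, chosen by function. Counts are given for some of the lists. The single genes named are examples and do not stand for their lists. Of 16 tested receptors that couple to stimulatory or inhibitory G proteins, 9 were higher and 5 lower in INS-rich than in GCG-rich cells, where 38.0% of all genes were called. Between GCG-rich and TPH1-rich cells 7 were higher and 8 lower, where 49.4% of all genes were called. GLP1R, the receptor for GLP-1, stood at 61.9, 85.9 and 89.6 CPM in TPH1-rich, 25.4, 37.6 and 30.4 CPM in INS-rich, 3.79, 15.6 and 21.8 CPM in SST-rich and 3.21, 8.23 and 5.01 CPM in GCG-rich cells. It was 3.58 ± 0.19 log2 lower in GCG-rich than in TPH1-rich cells (edgeR adjusted p = 3.1e-10), and all of its levels were lowest in the CD49a-positive library. ADRA2A, an adrenaline receptor that inhibits cyclases and is also on the enterochromaffin marker list, followed the same order with 33.6, 33.0 and 33.7 CPM in TPH1-rich and 2.14, 3.33 and 2.83 CPM in GCG-rich cells. SSTR2, a somatostatin receptor that inhibits cyclases, was highest in GCG-rich cells at 387, 376 and 406 CPM, against 65.1, 107 and 94.7 CPM in INS-rich cells. The log2 difference of SSTR2 was -2.15 ± 0.12 between INS-rich and GCG-rich cells (edgeR adjusted p = 1.1e-09).

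Downstream of cyclic AMP the counts differed from list to list. Of 9 tested protein kinase A subunits and inhibitors, 0 were higher and 5 lower in INS-rich than in TPH1-rich cells, and 2 and 2 between INS-rich and GCG-rich cells, against 40.7% and 38.0% of all genes called. Of 8 CREB family genes and coactivators, 0 were higher and 2 lower in INS-rich than in GCG-rich or in TPH1-rich cells, a share below those of all genes. Of 9 tested genes that cyclic AMP is known to induce, 1 was higher and 7 lower in INS-rich than in GCG-rich cells (38.0% of all genes called), and 6 were higher and 2 lower in GCG-rich than in TPH1-rich cells (49.4% called). FOS, one of them and also a gene of cell stress, stood at 249.8, 255 and 227 CPM in GCG-rich and at 56.0, 103 and 56.8 CPM in TPH1-rich cells. Of 9 tested proteins that anchor protein kinase A, 3 were higher and 3 lower in GCG-rich than in TPH1-rich cells, against 49.4% of all genes called. Between INS-rich and TPH1-rich cells 1 was higher and 2 lower, against 40.7%. AKAP6, which is on that list, was highest in TPH1-rich cells, at 103, 90.7 and 111 CPM against 20.1 to 32.3 CPM in the other classes. For cyclic GMP, 4 of 7 tested synthesis and effector genes were higher and 2 lower in GCG-rich than in TPH1-rich cells, against the same 49.4%. PRKG2, a kinase that cyclic GMP activates, was one of the lower, 2.07 ± 0.15 log2 below TPH1-rich cells (edgeR adjusted p = 1.8e-08).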

How the data were processed

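Single-cell RNA-seq libraries of CD49a-positive, CD49a-negative and unsorted stem-cell-derived islet cells were used, 1 per group. The deposited values are raw UMI counts per gene and barcode made by the authors with Cell Ranger 7.1.0 on GRCh38, per the submitters' processing notes. Whether intronic reads were counted is not given in the sources used here, and 3′ counts do not compare levels between genes. Barcodes were kept from 1000 detected genes upward and up to a mitochondrial share of 20%. No ambient RNA correction and no doublet caller was used. UMI counts were summed per library and class and tested with edgeR 4.0.16 (quasi-likelihood test, TMM scaling, filterByExpr, library as a term, Benjamini-Hochberg adjustment over 16701 genes) in R 4.3.3, after a check on simulated counts. The 4 classes of a library share that library, which is the pairing in the model. Libraries were compared as CPM ratios with 1 CPM added, and intervals are exact 95% intervals. Gene positions came from GENCODE release 29 and all 31 genes matched. DESeq2 1.42.0, other scalings, filters, class limits, Leiden clusters (scanpy 1.11.5, 17 clusters made without the 31 genes) and leaving out each library were the alternatives. Members with at least 10 CPM and 100 UMIs in some class were given with values per library, and others by their range or where a call bore on them. The members and lists were chosen with earlier results of these data known. A result on 1 listed gene is not reported here.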

Additional observations from a re-analysis of the deposited data

Results flagged for a closer look

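PDE10A differed between the sorted libraries in opposite directions in different classes. The log2 ratio of the CD49a-positive to the CD49a-negative library was -1.12 in INS-rich cells, 0.97 in GCG-rich cells and 0.82 in SST-rich cells. The difference between the classes was not tested, since each group was 1 library. Over the other settings the PDE10A log2 ratio ran from -1.54 to -0.68 in INS-rich cells. It ran from 0.43 to 1.38 in GCG-rich and from 0.36 to 1.37 in SST-rich cells. Its sign held in each, but these settings draw on the same 3 libraries and largely on the same cells. The unsorted library stood at 15.7, 29.2 and 61.9 CPM in these classes, in SST-rich cells below both sorted libraries. In the CD49a-positive library, 20 SST-rich cells of cluster 11 held 154 PDE10A UMIs, and 40% of these cells had any. TPH1 RNA stood at 21.7 and 54.9 CPM in the INS-rich cells of the CD49a-positive and CD49a-negative library. The values were 4.73 and 33.3 CPM in GCG-rich and 20.5 and 41.0 CPM in SST-rich cells, each time lower in the CD49a-positive library. The part of TPH1-bearing RNA in the PDE10A ratios was not tested.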

How the results depend on the processing

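Of 98 calls on members between classes, each read under 16 alternatives, 1402 of 1568 readings kept direction and call, 163 lost the call and 3 turned in direction. The 3 were ADCY2 between INS-rich and GCG-rich cells (0.0685 with classes from clusters), PDE3A between GCG-rich and SST-rich cells (from -1.32 without the CD49a-negative to 0.0047 without the unsorted library) and PDE8A between GCG-rich and TPH1-rich cells (0.0659 with clusters). The labels give no replicate numbers; without the library as a block, the pairing of classes within a library, the counts in the order of the report were 16, 13, 15, 12, 12 and 12. Leaving out 1 library at a time, the counts ran from 15 to 18, 12 to 15, 14 to 16, 9 to 15, 11 to 15 and 10 to 12, with 9 between GCG-rich and SST-rich and 11 between GCG-rich and TPH1-rich cells without the unsorted library. The 2-fold rule, chosen after seeing the data, gave 12, 11, 8, 7 and 8 in the first 5 pairs. Between the CD49a-positive and CD49a-negative libraries, 10 CPM added gave 4 members over all kept cells and 3 in GCG-rich cells, where equal weight per cell gave 2 and clusters 2. In SST-rich cells the count was 5 with equal weight per cell, 6 with at least 10 UMIs, 6 with a lead of 5 times, 5 without cells of over 2 times the median UMIs and 8 with clusters. In TPH1-rich cells it was 5 with equal weight per cell, with at least 10 UMIs, with a lead of 5 times, with at least 2000 genes and 10% mitochondrial UMIs, and without cells of over 2 times the median UMIs. With a scaled hormone value of at least 0.4, PDE4B (-0.0231) and PDE5A (-0.29) in SST-rich and PDE1C (-0.35) in TPH1-rich cells turned in direction, and the cause was not tested. The 28 SST-rich and 52 TPH1-rich cells of the CD49a-positive library limit these ratios.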
